A study of Mus musculus with 2 samples.

Results

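The 4 Dppa (developmental pluripotency associated) genes Dppa2, Dppa3, Dppa4 and Dppa5a and 6 other genes that are largely restricted to embryonic stem (ES) cells and the early embryo, Utf1, Tcl1, Tdh, L1td1, Lin28a and Trim71, were followed in the RNA of mouse ES cells, WT or with the histone mutation H3.3 G34R. They were chosen by name, with no threshold on their values but with earlier results of these data known. They are 10 of the 26127 probes (isoforms merged) in the expression tables. All 10 were found and all passed the filter for comparison, at least 0.25 RPKM in either library, which 13366 probes passed. RPKM is the number of reads scaled to the length of the transcript and to the total of the library, so levels of different genes are per length. All 10 also reached 5 RPKM in at least 1 library, as did 5867 probes in all.

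WT cells were unmodified ES cells with both H3.3 genes intact (H3f3a+/+; H3f3b+/+). G34R cells carried a single mutant copy of H3f3a (H3f3a+/G34R; H3f3b+/+), in which glycine 34 of histone H3.3 is replaced by arginine. In that allele a minigene with the mutation takes the place of the WT one after Cre excision and is driven by the endogenous H3f3a promoter. Both lines had the strain label 129S1/SvImJ, were below passage 20 and grew in medium with 15% foetal calf serum and leukaemia inhibitory factor (LIF). G34R cells were obtained as targeted clones and the labels do not name the clone that was sequenced. Each line gave 1 library, so no value below has a replicate and genotype cannot be told apart from clone or culture. No test between the lines was possible, and a difference was read only by its size, its counting error and its place among all genes.

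Most of these genes are switched on in the inner cell mass or the germ line and are silenced as cells differentiate, which makes them common markers of mouse ES cells. Dppa2 and Dppa4 are chromatin proteins with SAP domains that bind each other and activate genes of the early embryo, whereas Dppa3 (Stella) protects maternal DNA methylation and Dppa5a (Esg1) is a KH-domain RNA-binding protein. Lin28a blocks the maturation of the let-7 microRNAs, and Lin28a and Trim71 are themselves let-7 targets. The others are a chromatin protein (Utf1), a cofactor of the kinase Akt (Tcl1), the mitochondrial threonine dehydrogenase (Tdh) and an RNA-binding protein derived from a LINE-1 retrotransposon (L1td1).

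The let-7 connection can be read in the sequences of Lin28a and Trim71, which are shown because these 2 members share a regulator and are compared with each other below. All 8 let-7 5p microRNAs in the RefSeq table carry the same seed (bases 2 to 8, in capitals), here in let-7a of mouse (GRCm38.p6, chr13:48538239-48538260, minus strand). The DNA letters that pair with it are CTACCTC, and in the 3′ UTRs of mm9 (GENCODE M1, longest per gene) they are found in Lin28a and Trim71 and in none of the other 8 members. Each of the 2 genes has 2 such matches, printed below with the paired letters in capitals, whereas 8.8% of the 20007 genes with a 3′ UTR have at least 1 and 1.01% have at least 2.
let-7a-5p: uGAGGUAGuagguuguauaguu
Lin28a match, chr4:133561104-133561126, minus strand: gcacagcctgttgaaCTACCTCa
Lin28a match, chr4:133560466-133560488, minus strand: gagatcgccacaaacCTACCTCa
Trim71 match, chr9:114421590-114421612, minus strand: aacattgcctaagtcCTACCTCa
Trim71 match, chr9:114421494-114421516, minus strand: agtgataatttctatCTACCTCa

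Promoter sequences are shown for Utf1 and Tcl1, which had the highest and the lowest log2 ratio of the members. RefSeq (GRCm38.p6) holds a promoter window, from 250 bases before to 50 bases after the start of transcription, for 5 of the 10 members (Utf1, Tcl1, L1td1, Lin28a and Trim71). The windows were searched for the GC box GGGCGG on both strands, with overlapping matches counted, which 35.7% of all 32851 windows contain. Utf1 had 4 matches, of which 2 overlap by their last and first base, Tcl1 had 2, Lin28a and Trim71 had 1 each and L1td1 had none. The 250 bases before the start are given for Utf1 (chr7:139943606-139943855, plus strand) and Tcl1 (chr12:105222738-105222987, minus strand), with the GC boxes in capitals.
Utf1: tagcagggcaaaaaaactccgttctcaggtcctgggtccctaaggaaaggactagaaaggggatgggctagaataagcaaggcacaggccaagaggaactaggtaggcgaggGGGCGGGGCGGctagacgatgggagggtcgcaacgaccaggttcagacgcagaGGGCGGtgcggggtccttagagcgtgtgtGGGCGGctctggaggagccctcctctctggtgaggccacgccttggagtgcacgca
Tcl1: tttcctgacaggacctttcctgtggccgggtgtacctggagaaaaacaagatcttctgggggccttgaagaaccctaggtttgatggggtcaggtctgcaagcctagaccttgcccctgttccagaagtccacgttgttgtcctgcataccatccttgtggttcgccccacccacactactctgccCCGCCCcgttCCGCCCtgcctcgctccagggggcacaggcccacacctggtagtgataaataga

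The ratio of observed to expected CpG dinucleotides in the window was 0.615 for Utf1 and 0.462 for Tcl1, against a median of 0.384 over all promoters. Trim71 had the highest ratio of the 5 members (0.72), followed by Utf1, L1td1 (0.559), Tcl1 and Lin28a (0.351). Other letters searched on both strands were CACCC, the core of Klf sites, present in Tcl1, L1td1, Lin28a and Trim71 and in 57.5% of all windows, and CATTGT, the core of Sox sites, present in Lin28a and in 12.6%. The octamer ATTTGCAT (1.74% of all windows), TCAAGGTCA (0.423%) and TATAAA (13.6%) were found in none of the 5. These matches describe letters only, since no binding or methylation at the promoters was analysed here.

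Depth was estimated from the smallest steps in RPKM of short single-exon genes, as 88.05 M reads in WT and 72.1 M in G34R cells, which makes 1 read on a 1 kb transcript worth 0.0114 and 0.0139 RPKM. The 95% intervals below are counting intervals on the reads estimated from these totals. They cover counting error only and not the spread between cultures. The targeted gene H3f3a had 8.17 RPKM in WT and 4.89 in G34R cells and its twin H3f3b, on another chromosome and coding for the same protein, had 68.8 and 58.8. As these values do not separate the alleles, they do not check the mutation itself.

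The 10 genes covered a wide range of levels (the plot of RPKM by gene and cell line). Dppa5a was by far the highest, with 708 RPKM in WT and 648 in G34R cells, which ranked it 8 and 12 among all probes. At the other end Dppa3 had 7.94 and 3.98 RPKM, so Dppa5a was 89.2 times as high as Dppa3 in WT and 163 times in G34R cells. The 8 genes between them lay from 18.5 to 84.5 RPKM in WT and from 8.04 to 109 RPKM in G34R cells.

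**Figure D1:**
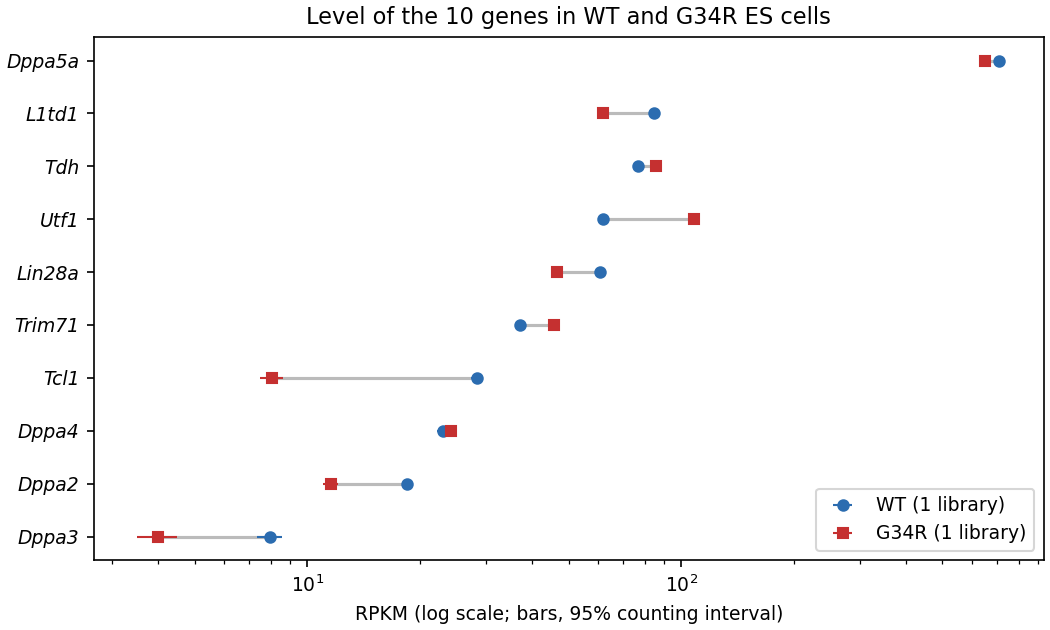
RPKM (log axis) of each of the 10 genes in WT (blue circles) and G34R cells (red squares), 1 library each, with 95% counting intervals as bars and genes ordered by their WT level. Tcl1 shows the widest gap, from 28.4 RPKM in WT to 8.04 in G34R cells, while the points of Dppa4 nearly coincide.

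The order of levels in WT cells was Dppa5a, L1td1, Tdh, Utf1, Lin28a, Trim71, Tcl1, Dppa4, Dppa2 and Dppa3. Only Utf1 and Lin28a had overlapping counting intervals among neighbours in this order. In G34R cells the order was Dppa5a, Utf1, Tdh, L1td1, Lin28a, Trim71, Dppa4, Dppa2, Tcl1 and Dppa3, and the overlapping neighbours were Lin28a and Trim71. Utf1 moved from place 4 to 2, L1td1 from 2 to 4 and Tcl1 from 7 to 9. The levels of all 10 summed to 1107 RPKM in WT and 1044 in G34R cells, of which Dppa5a made up 64% and 62.1%. Without Dppa5a, the other 9 summed to 399 and 396, so the differences of single genes nearly cancelled in the sum.

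By a difference of more than 2-fold, 1 of the 10 members, Tcl1, was lower in G34R cells and 0 were higher. Among all 13366 genes compared, 9.64% were lower and 5.79% higher by more than 2-fold. Weakly expressed genes scatter more, and among the 5867 genes with at least 5 RPKM the shares were 4.07% lower and 3.09% higher. In bulk RNA fewer cells that express a gene cannot be told apart from less RNA per cell. With a lower bar of 1.5-fold, 3 members were lower (Tcl1, Dppa3 and Dppa2) against 10.6% of genes with at least 5 RPKM, and 1 was higher (Utf1) against 9.31%. The other 6 members differed by less than 1.5-fold in either direction.

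Of the 10 log2 (G34R/WT RPKM) values, 6 were below 0 and 4 above, with a median of -0.25. Over genes with at least 5 RPKM 55.3% were below 0, and the median was -0.06 with quartiles of -0.31 and 0.23. The members thus differed among themselves, from -1.82 for Tcl1 to 0.81 for Utf1, and did not move as a block (the plot of change against level).

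**Figure D2:**
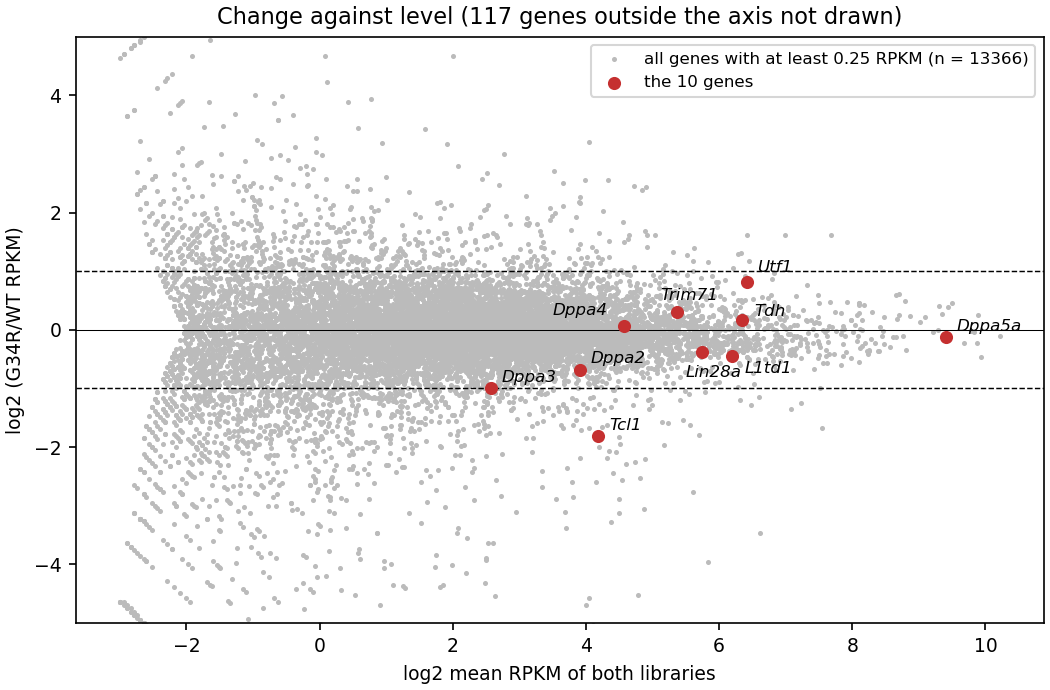
Log2 (G34R/WT RPKM) against log2 of the mean RPKM of both libraries for the 13366 genes compared (grey) and the 10 members (red), with dashed lines at a 2-fold difference. Tcl1 lies below the lower line, Dppa3 on it, and the other 8 members between the lines. Genes beyond the vertical axis are not drawn.

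Dppa2 (ENSMUSG00000072419, chr16:48310590-48319836, plus strand, mm9) and Dppa4 (ENSMUSG00000058550, chr16:48283848-48294405, plus strand) are neighbours, 16184 bp apart, and their proteins act as a pair. Dppa2 had 18.5 RPKM in WT (counting interval 17.9 to 19.2) and 11.6 in G34R cells (11 to 12.1), 1.6-fold lower. Its log2 ratio was -0.68 (95% counting interval -0.77 to -0.59), and 8.18% of the genes with at least 5 RPKM had a ratio as low or lower. Dppa4 had 23.2 RPKM in WT and 24.2 in G34R cells, a log2 ratio of 0.07 (-0.01 to 0.14), a difference within counting error. The 2 genes of the pair therefore differed in their log2 ratios, and the ratio of Dppa4 to Dppa2 RPKM was 1.25 in WT and 2.1 in G34R cells. The difference between their log2 ratios was 0.74 (0.63 to 0.86), beyond counting error.

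Copies of both genes elsewhere in the genome limit these values. For Dppa2, 55.1% of the possible 50 bp reads have an exact copy elsewhere in mm9, on 5 chromosomes, and for Dppa4 47.7% do. Since the authors kept primary alignments, a read that fits several places was assigned to one of them, and some reads of these genes may have been counted elsewhere or the reverse. The 1 annotated probe at a Dppa4 copy, Gm5501, had 4.11 RPKM in WT and 3.32 in G34R cells, well below Dppa4 itself.

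A list of 14 genes described as activated by Dppa2 and Dppa4 gave 13 with a probe and 7 for comparison, 5 of them of the Zscan4 family. By more than 2-fold 6 were lower, against 9.64% of all genes compared, and 0 were higher, with a median log2 ratio of -4.32. The list was chosen with earlier results of these data known, so the share over all genes is no test of it. All but Mael and Syce1 were below 2 RPKM, and at 5 RPKM or more only 1 gene, Mael, was left past 2-fold. Zscan4b, of a zinc finger family expressed in a small fraction of ES cells, had 1.96 RPKM in WT and 0.04 in G34R cells. Zscan4d had 1.6 and 0.08 RPKM, Zscan4e 1.07 and 0.04, and Zscan4f 0.43 and 0.01, values of closely similar genes between which reads may be shared. The others were Zscan4c and Mael, a factor of the piRNA pathway, with 9.14 and 2.7 RPKM for Mael, while Syce1, of the meiotic synaptonemal complex, was within 2-fold at 6.82 and 3.51. The probes of Dux, Zfp352, Tdpoz1, Tdpoz3, Tdpoz4 and Nkx2-5 stayed under 0.25 RPKM in both libraries.

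Dppa3 (ENSMUSG00000046323, chr6:122576428-122580290, plus strand) was the lowest of the 10 genes and had the second lowest log2 ratio. It had 7.94 RPKM in WT (7.33 to 8.59, about 624 reads) and 3.98 in G34R cells (3.51 to 4.5, about 256 reads). The log2 ratio was -1.0 (-1.21 to -0.78), a 1.99-fold lower level just short of the 2-fold mark, and 4.11% of genes with at least 5 RPKM had a ratio as low or lower. Its interval was the widest of the 10, and it includes the 2-fold mark. An exact copy elsewhere exists for 24.4% of its possible reads, nearly all of them in a copy on the X chromosome.

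Dppa3 sits in a cluster of pluripotency genes on chromosome 6. Its nearest neighbour on one side, Gdf3, a TGF-beta family ligand, had 22 RPKM in WT and 18.4 in G34R cells. On the other side Nanog, a core pluripotency factor whose start lies 81.1 kb away, had 127 and 52.2 RPKM, a log2 ratio of -1.28. Slc2a3 beyond it, a glucose transporter, had 80.1 and 75.6 RPKM. Of the 11 other genes compared within 500 kb, 1 was lower by more than 2-fold, Nanog, near the 9.64% of all genes compared. The median log2 ratio of the 11 was -0.26 against -0.09 for chromosome 6. These neighbours, and those of Dppa2, Utf1 and Dppa5a, were named after their values were seen.

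Of 8 listed genes of DNA methylation, on which Dppa3 bears, 8 were compared, with a median log2 ratio of 0.12. By more than 2-fold 0 were lower and 1 was higher, against 9.64% and 5.79% of all genes compared. Dnmt1, the maintenance methyltransferase, had 8.14 RPKM in WT and 44.4 in G34R cells, a log2 ratio of 2.45. Uhrf1, the Dnmt1 partner that Dppa3 displaces from chromatin, had 53.2 and 51.1 RPKM. The demethylation enzyme Tet1 had 48.4 and 54.5 RPKM, and Dnmt3b, a de novo methyltransferase, had 34.1 and 32.1.

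Dppa5a (ENSMUSG00000060461, chr9:78214859-78215984, minus strand) had 708 RPKM in WT (701 to 715) and 648 in G34R cells (640 to 655). The log2 ratio of -0.13 (-0.15 to -0.11) was beyond counting error but small, and 43.1% of genes with at least 5 RPKM had a ratio as low or lower. The gene has the largest share of possible reads with an exact copy elsewhere, 61.2%. One copy is Dppa5b (chr9:78093301-78094403, plus strand), in which an aligned block of 245 bp was 100% identical. Dppa5b had 267 RPKM in WT and 300.2 in G34R cells, a log2 ratio of 0.17 in the direction opposite to Dppa5a. Summed, both came to 975 and 948 RPKM, a log2 ratio of -0.04, closer to 0 than that of Dppa5a alone.

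Dppa5a belongs to a family of small KH-domain proteins, of which 5 other members were listed. Only 2 were expressed enough to compare, and 1 was lower by more than 2-fold. This was 2410004A20Rik, with 32.8 RPKM in WT and 7.83 in G34R cells, a log2 ratio of -2.06. Ooep, a maternal effect gene that lies next to Dppa5a on chromosome 9, had 19.4 and 13.6 RPKM. Khdc1a, Khdc1b and Khdc1c were at 0 in both libraries.

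Utf1 (ENSMUSG00000047751, chr7:147129688-147131011, plus strand) had the highest log2 ratio of the 10 genes. It had 61.9 RPKM in WT (60.4 to 63.4, about 6686 reads) and 109 in G34R cells (106 to 111, about 9604 reads), 1.75-fold higher. The log2 ratio was 0.81 (0.77 to 0.86), and 4.99% of genes with at least 5 RPKM had a ratio as high or higher. None of the possible reads of Utf1 has an exact copy elsewhere. Its rank among all probes was 405 in WT and 189 in G34R cells.

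The 11 other genes compared within 500 kb of Utf1 had a median log2 ratio of 0.35 against -0.07 for chromosome 7. By more than 2-fold 0 were lower and 2 were higher, against 9.64% and 5.79% of all genes compared. Those higher were Nkx6-2, a homeobox gene, with 1.1 RPKM in WT and 4.3 in G34R cells, and 1810014F10Rik, with 0.43 and 1.32. The nearest upstream gene, Kndc1, had 1.4 and 1.5 RPKM.

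Tcl1 (ENSMUSG00000041359, chr12:106454967-106460947, minus strand) changed most. It had 28.4 RPKM in WT (27.5 to 29.4, about 3481 reads) and 8.04 in G34R cells (7.49 to 8.61, about 806 reads), 3.53-fold lower. Its log2 ratio was -1.82 (-1.93 to -1.71), the only one past 2-fold and also past 3-fold, which 1.99% of genes with at least 5 RPKM passed in this direction. In the same set 1.55% of genes had a ratio as low or lower. No possible read of Tcl1 has an exact copy elsewhere. Set against Utf1, the Utf1 level was 2.18 times that of Tcl1 in WT and 13.5 times in G34R cells.

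The gene family of Tcl1 was otherwise silent or weak. Of 6 relatives, Tcl1b1, Tcl1b3, Tcl1b4 and Tcl1b5, from the cluster beside Tcl1, were at 0 in both libraries, and Tcl1b2 had 0.01 RPKM in WT and 0 in G34R cells. Mtcp1, the X-linked relative and the only one compared, had 0.51 and 0.77 RPKM. Akt kinases, which Tcl1 binds, and other genes of that pathway gave 0 of 10 past 2-fold in either direction, with a median log2 ratio of -0.06. Over all genes compared 9.64% were lower and 5.79% higher by more than 2-fold, so 0 of 10 is near these shares. Among the Akt pathway genes Mtor had 8.53 RPKM in WT and 8.65 in G34R cells, Foxo3 8.61 and 7.79, and Akt1 6.11 and 8.18.

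On chromosome 12 the 3 probes before Tcl1 in mm9 were Tcl1b5, Tcl1b3 and Tcl1b4, all silent. The 3 after it were 2810011L19Rik with 0.51 RPKM in WT and 0.18 in G34R cells, Bdkrb2 with 0.22 and 0.09, and Bdkrb1 at 0 in both. Within 500 kb 8 other genes were compared, with a median log2 ratio of -0.64 against -0.1 for chromosome 12. By more than 2-fold 4 were lower and 0 higher, against 9.64% and 5.79% of all genes compared. All 4 were weakly expressed (Clmn 0.98 and 0.44 RPKM, Ak7 1.43 and 0.32, 4831426I19Rik 0.36 and 0.16, and 2810011L19Rik). The better expressed Glrx5 and Atg2b had log2 ratios of 0.19 and -0.09 (the plot of neighbouring genes).

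**Figure D3:**
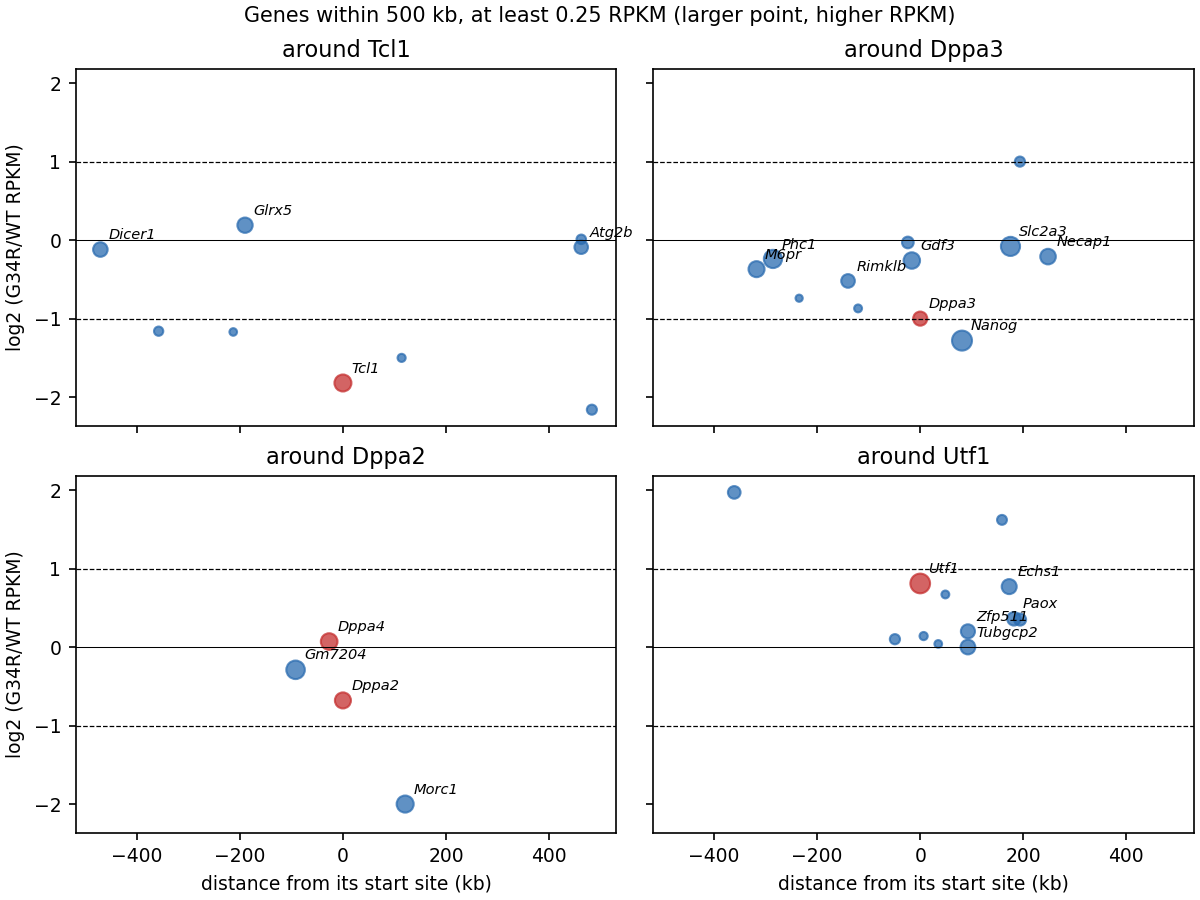
Log2 (G34R/WT RPKM) of genes with at least 0.25 RPKM against the distance of their start sites from that of Tcl1, Dppa3, Dppa2 and Utf1, within 500 kb on mm9 (larger points, higher RPKM; members in red; dashed lines, 2-fold). Nanog beside Dppa3 and Morc1 beside Dppa2 lie past the lower line, while Dppa4, Gdf3 and Glrx5 do not.

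The 3 genes with the levels nearest to those of Tcl1 in both libraries, by distance on the log2 RPKM plane over the 2 libraries, were Morc1, Impact and Pla2g1b. Morc1, a germ-line ATPase and itself on a list of other ES cell-restricted genes, had 29.4 RPKM in WT and 7.37 in G34R cells, a distance of 0.135. It lies downstream of Dppa2, its start 120.8 kb away. Impact, a regulator of the Gcn2 kinase, had 28.8 and 9.1 RPKM (0.18), and Pla2g1b, a phospholipase, 25.1 and 7.9 (0.182).

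Lin28a (ENSMUSG00000050966, chr4:133559245-133574756, minus strand) and Trim71 (ENSMUSG00000079259, chr9:114420393-114473487, minus strand), the 2 members with let-7 matches, differed in direction. Lin28a had 60.8 RPKM in WT (59.9 to 61.7) and 46.7 in G34R cells (45.9 to 47.5), a log2 ratio of -0.38 (-0.41 to -0.35). Trim71, a ubiquitin ligase that binds RNA, had 37.1 RPKM (36.5 to 37.6) and 45.6 (44.9 to 46.3), a log2 ratio of 0.30 (0.27 to 0.33). Each was within 1.5-fold, but the difference between their log2 ratios was 0.68 (0.63 to 0.72). The level of Lin28a was 1.64 times that of Trim71 in WT and 1.02 times in G34R cells, where their intervals overlap. A single copy elsewhere gives an exact match for 10.8% of the possible reads of Lin28a, and Trim71 has none.

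Of 9 genes listed for let-7 processing and turnover, 0 were lower and 0 higher by more than 2-fold. Over all genes compared the shares were 9.64% lower and 5.79% higher, so 0 of 9 is near them. The median log2 ratio of the 9 was 0.15. The nuclear exporter Xpo5 had 25.9 RPKM in WT and 28.7 in G34R cells, the nuclease Drosha 17.1 and 22.5, the Argonaute gene Eif2c2 15.9 and 21, and Dicer1 9.49 and 8.75. Lin28b, the paralogue of Lin28a, was much lower than Lin28a, with 2.39 and 2.74 RPKM. Of 8 other let-7 targets 0 were lower and 1 was higher by more than 2-fold, against the same shares over all genes, with a median of -0.02. That gene was Hmga2, a chromatin protein, with 0.51 RPKM in WT and 1.71 in G34R cells, whereas Igf2bp1 had 49.2 and 51.9, Mycn 30.4 and 23.3, and Ccnd1 21.8 and 16. Mature let-7 was not analysed here.

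Tdh (ENSMUSG00000021953, chr14:64111184-64127929, minus strand), by which mouse ES cells break down threonine to glycine and acetyl-CoA, had 76.7 RPKM in WT (75.6 to 77.9) and 85.5 in G34R cells (84.2 to 86.9). The log2 ratio was 0.16 (0.13 to 0.19), between the quartiles of genes with at least 5 RPKM. One copy elsewhere matches 15.8% of its possible reads. Of 10 genes of threonine and glycine breakdown and of linked one-carbon metabolism, 0 were past 2-fold, with a median log2 ratio of -0.14. This count is near the shares over all genes compared, 9.64% lower and 5.79% higher. Mthfd1, of one-carbon metabolism, had 63.9 RPKM in WT and 85.8 in G34R cells. Gldc, of the glycine cleavage system, had 52.3 and 40.8, Shmt2 38.1 and 48.5, and Gcsh 39.8 and 36. Summed, the 10 had 333 RPKM in WT and 339.6 in G34R cells.

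L1td1 (ENSMUSG00000087166, chr4:98393425-98405171, plus strand) was the second highest of the 10 genes in WT cells. It had 84.5 RPKM in WT (83.4 to 85.6) and 61.9 in G34R cells (60.9 to 62.9), a log2 ratio of -0.45 (-0.48 to -0.42). This is 1.37-fold lower, within 1.5-fold, and 16.1% of genes with at least 5 RPKM had a ratio as low or lower. Only 1.18% of its possible reads have an exact copy elsewhere.

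Beside the members, a list of 14 other ES cell-restricted genes gave 13 for comparison, of which 5 were lower by more than 2-fold, against 9.64% of all genes compared, and 0 were higher, with a median log2 ratio of -0.85. This list too was chosen with earlier results of these data known. The 5 became 3 with a pseudocount of 1 RPKM or at 5 RPKM or more. Pramel6 had 1.02 RPKM in WT and 0.07 in G34R cells, and Pramel7 0.81 and 0.1. Fbxo15, an F-box gene long used as an ES cell marker, had 65.5 and 22.5 RPKM, and Eras, an ES cell Ras protein, had 22.6 and 8.38. Morc1 was the remaining one. Dppa1 was at 0 in both libraries (the plot of gene lists).

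**Figure D4:**
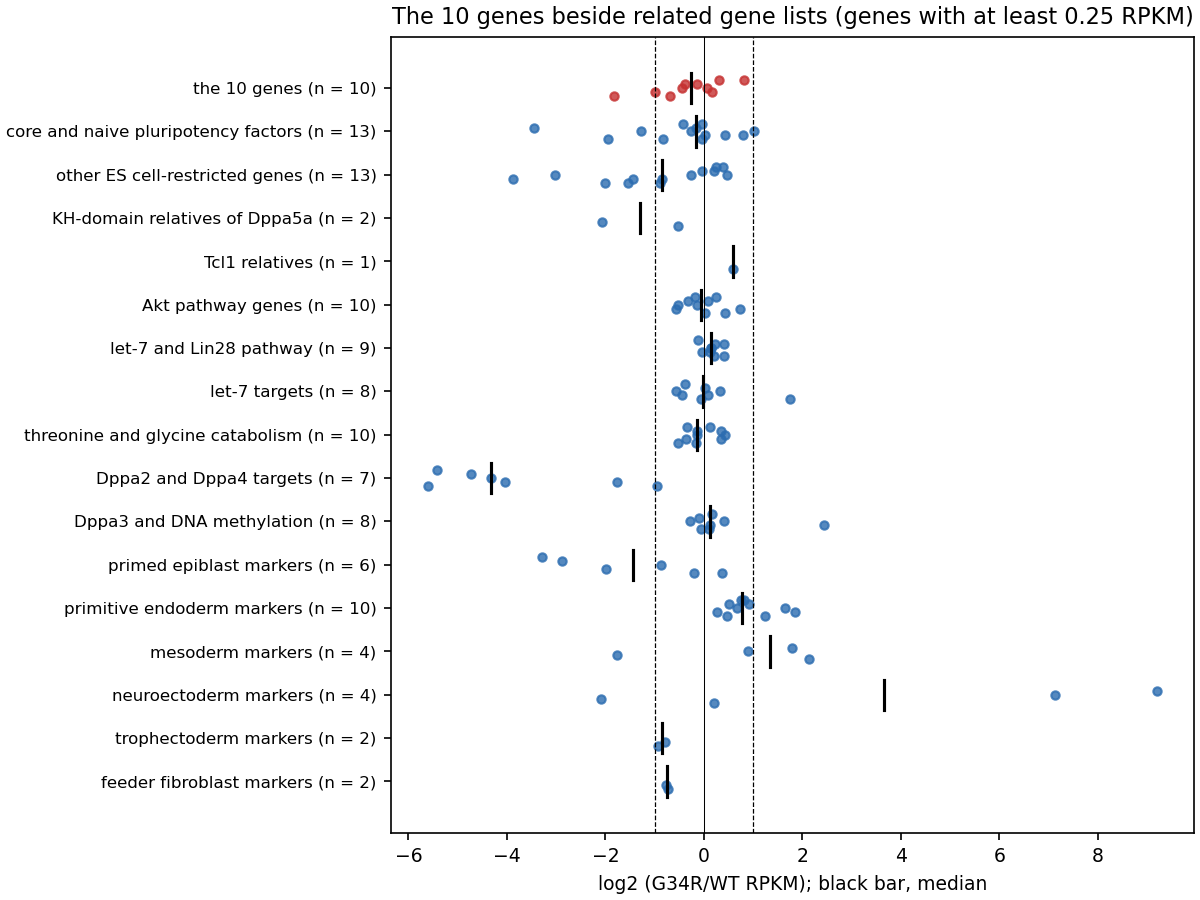
Log2 (G34R/WT RPKM) of the 10 members (red) and of the genes with at least 0.25 RPKM in each related list (blue), with n beside each list, black bars at the medians and dashed lines at a 2-fold difference. The members spread from -1.82 to 0.81 around a median of -0.25, the 7 targets of Dppa2 and Dppa4, mostly Zscan4 genes at low RPKM, lie to the left, and the Akt, let-7 and threonine lists lie between the dashed lines except for Hmga2.

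Both libraries carried the defining markers of ES cells, such as Pou5f1 (Oct4) with 194 RPKM in WT and 189 in G34R cells. Of 14 core and naive pluripotency factors 13 were found under the listed name. These summed to 812 RPKM in WT and 582 in G34R cells, with a median log2 ratio of -0.16. The remaining one, Tfcp2l1, has a probe under its older name Tcfcp2l1, with 40.8 RPKM in WT and 53.4 in G34R cells. It was left out of this sum and median. By more than 2-fold 3 of the 13 were lower (Zfp42 with 180.3 and 16.4 RPKM, Klf2 with 36.1 and 9.34, and Nanog) and 1 was higher (Klf5 with 26.1 and 52.4). For this list and those that follow, the shares over all genes compared were 9.64% lower and 5.79% higher. The lists were chosen with earlier results of these data known, so these shares are no test of them. Primed epiblast markers summed to 110.3 and 27.2 RPKM, with 3 of 6 lower (Lefty2, Lefty1 and Otx2), 0 higher, a median of -1.43 and Cer1 at 0 in both libraries. Lefty1 (39.9 and 5.39 RPKM), Lefty2 (37.8 and 3.89) and Nodal (23.4 and 12.7) made up most of this sum. Pou3f1 had 1.8 and 2.31 RPKM and Sfrp2 1.74 and 1.52, and Fgf5 stayed under 0.25 RPKM. Primitive endoderm markers summed to 65.1 and 104.5 RPKM, with 0 of 10 lower, 3 higher and a median of 0.78. Those 3 were weak (Gata6 with 0.3 and 1.09 RPKM, Sox17 with 0.18 and 0.56, and Gata4 with 0.5 and 1.18), and 0 were past 2-fold with a pseudocount of 1 RPKM or at 5 RPKM or more. All 10 endoderm markers had a log2 ratio above 0. By more than 1.5-fold 7 were higher, as were 1784 of the 13366 genes compared. Among the 7 were the better expressed Sparc, with 31.7 and 53.4 RPKM, and Lama1, with 11.6 and 20.3. Mesoderm markers summed to 5.5 and 17.8 RPKM (1 of 4 lower, Gsc, 2 higher, Eomes and Bmp4, median 1.35). Bmp4 made up most of this sum, with 4.29 and 14.97 RPKM, and T, Mixl1, Mesp1, Tbx6 and Kdr stayed under 0.25 RPKM. Neuroectoderm markers summed to 37.2 and 47.3 RPKM (1 of 4 lower, Tubb3, 2 higher, Olig2 and Olig1, median 3.66, Neurog2 at 0 in both). Tubb3 had 35.6 and 8.36 RPKM, Nes 1.36 and 1.56, Olig1 0.14 and 19.6, and Olig2 0.03 and 17.7, so this median stands for no single gene. Pax6 and Zic1 stayed under 0.25 RPKM. Trophectoderm markers summed to 17.7 and 9.9 RPKM and feeder fibroblast markers to 1.8 and 1.2, each with 2 compared and 0 past 2-fold (medians -0.86 and -0.75), and Dcn, Lum and Postn were at 0 in both libraries. The part of these cell states in the members' values was not tested.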

How the data were processed

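One stranded total RNA library was sequenced for each ES cell line, WT and G34R. Per the methods and the submitters' processing notes, the authors aligned 50 bp single-end reads to mm9 with STAR 2.4.2a, imported primary alignments into Seqmonk, counted strand-specifically over mRNA with isoforms merged, and deposited RPKM values corrected for transcript length.

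Log2 ratios of G34R to WT were taken from these deposited values after raising any RPKM below 0.01 to that floor. Genes needed at least 0.25 RPKM in either library. Library depth came from the smallest steps between RPKM values of single-exon genes shorter than 800 bp (97.2% and 100% of 71 and 58 values lay within 0.25 reads of a whole number), and reads per gene from RPKM, this depth and merged exon length in GENCODE M1, which 26055 of 26127 probes matched. Both are estimates, and the 95% counting intervals rest on them.

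Copies were searched with BLAST+ 2.17.0 in mm9. Python 3.11.15, NumPy 2.4.6, pandas 2.3.3, SciPy 1.17.1 and matplotlib 3.10.9 were used. The scripts were tested on simulated data.

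The members and the gene lists were chosen with earlier results of these data known. The genes named were all 10 members, up to 4 genes per list (those past 2-fold by size, then by RPKM), the 3 probes on each side of members past 2-fold and the 3 genes nearest in level to the member that changed most. Other genes were named after their values were seen, and 1 gene that this rule names is not reported here. Alternatives were other pseudocounts, scalings, filters and fold thresholds. ChIP-seq was not analysed here.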

Additional observations from a re-analysis of the deposited data

How the results depend on the processing

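With a threshold of 1.5-fold in place of 2-fold, the members lower in G34R cells numbered 3 and those higher numbered 1, against 1 and 0. Under the other pseudocounts, scalings and filters and at 3-fold these counts were as reported, and the median of the members lay between -0.25 and -0.20. The filters could not change these values, since all 10 members reached 5 RPKM in at least 1 library. None of the 10 log2 ratios changed sign under the 7 alternatives run for them, but few of these could have changed one. A filter leaves a ratio as it is, and a pseudocount keeps its sign. The scalings moved all ratios alike, by 0.046 for equal sums of RPKM, so the unchanged signs are no test. Tcl1 ranged from -1.82 to -1.70, Dppa3 from -1.0 to -0.84, Dppa2 from -0.68 to -0.62 and Utf1 from 0.80 to 0.87. The genes lower by more than 2-fold among all compared, 1289, became 356 with a pseudocount of 1, 2877 without a filter, 689 at 1 RPKM or more, 2431 at 1.5-fold and 729 at 3-fold, and the 774 higher became 196, 1445, 439, 1784 and 331. Of 282 counts over the lists 254 stayed within 1.5 times and 28 did not. Many of the 254 were 0 under every setting, so their number is no measure of stability. Among the 28 were the targets of Dppa2 and Dppa4 (6 lower, 1 at 5 RPKM or more). The primitive endoderm markers were also among them (3 higher, 0 with a pseudocount of 1 or at 5 RPKM or more). Klf5 and Hmga2, each the 1 gene higher in its list, were not past 2-fold with a pseudocount of 1. No paired analysis was possible because each group has 1 library. Depth sets a counting half-interval of at most 0.21 on a member's log2 ratio, and the spread between cultures is unknown.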
